A study of Mus musculus with 8 samples.

Results

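Cytosolic ribosomal proteins are the protein parts of the 40S and 60S subunits, and their genes are described here in mouse acute myeloid leukaemia (AML) cells on 8 Affymetrix HT MG-430 PM expression arrays. Members are the genes whose array annotation gives a single symbol starting Rpl or Rps followed by a number, with Rplp0, Rplp1, Rplp2, Rpsa and Fau, leaving out pseudogenes and the S6 kinases. The rule found 73 genes among 17097 on the array, each read by the probe set with the highest mean signal. Of these, 41 encode large-subunit proteins and 25 small-subunit proteins, 6 are paralogs with their own symbols (Rpl3l, Rpl7l1, Rpl22l1, Rpl36al, Rpl39l and Rps27l), and 1 (Rps19bp1, a protein that binds Rps19) is matched by the symbol rule without being a ribosomal protein. Genes such as Rpl5 were not analysed here.

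The 4 arrays labelled Trib1 hi hold total RNA of AML cells that, per the labels, express Hoxa9 and Trib1, and the 4 labelled Trib1 null hold total RNA of AML cells that express Hoxa9 without Trib1. The cells came from leukaemias of Trib1 homozygous knock-out mice, and both kinds grew untreated in medium with 10% serum and 5 ng/ml IL-3, so Hoxa9, serum and the cytokine are shared by every array. Trib1 is a pseudokinase that brings the ubiquitin ligase COP1 to C/EBP alpha, and Hoxa9 is a homeobox factor that drives myeloid leukaemia. Nothing in the labels ties the replicate arrays to different cultures or clones. The p-values therefore reflect only array-to-array spread, possibly technical, and if the groups are separate lines, which is not stated, line, animal and Trib1 status cannot be told apart. The brighter Trib1 probe set read 7.13, 7.13, 122 and 5.92 on the Trib1 hi arrays and 304, 223, 212 and 206 on the Trib1 null arrays. These dim readings go against the labels, so directions below refer to the arrays labelled Trib1 hi and those labelled Trib1 null. Hoxa9 read 14.3, 14.3, 391 and 10.03 on the Trib1 hi arrays and 969, 1075, 1031 and 1020.1 on the Trib1 null arrays, although the labels give it to both. Whether these probe sets can detect an expressed construct is not stated.

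Each ribosome holds a single copy of nearly all of these proteins, and cells keep their supply matched to ribosomal RNA. Their mRNAs begin with a C followed by a run of pyrimidines, the terminal oligopyrimidine (TOP) tract, through which mTOR and the RNA-binding protein LARP1 set how much of the mRNA is translated. Their transcription rises with growth and with MYC in many cell types. Loss of a single copy of several of them causes Diamond-Blackfan anaemia in humans, and deletion of the RPS14 region marks a human myelodysplastic syndrome. None of these layers beyond mRNA level is measured by the arrays.

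The members sat at the bright end of every array. The deposited values are linear MAS5 signals, where MAS5 is Affymetrix's method of summarising and scaling each array. Of the 73 members, 67 had a mean signal over 10000, between 17594 and 44890, and these 67 made up 65 of the 100 genes with the brightest signal and 37 of the brightest 50. Brightness differs between probe sets for reasons other than RNA amount, so it orders signals and not transcripts. The 6 dimmer members were Rpl7l1 at a mean signal of 2808, Rps19bp1 at 937, Rpl14 at 790, Rps15a at 10.9, Rpl39l at 8.09 and Rpl3l at 2.85. For Rpl14, 4 further probe sets carry a second gene symbol and were left out by the rule.

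The bright members moved together from array to array. Their median signal was 38525, 36974, 25321 and 36462 on the Trib1 hi arrays 1 to 4, and 27823, 34342, 31978 and 32126 on the Trib1 null arrays 1 to 4. Trib1 hi 3 was the lowest Trib1 hi array for 67 of 67 members, and Trib1 null 1 was the lowest Trib1 null array for 67 of 67. On the Trib1 hi arrays the members' summed signal took 6.38, 6.21, 4.91 and 6.18% of the array's total. On the Trib1 null arrays it took 5.21, 5.99, 5.74 and 5.72%. Group means of that share were 5.92 ± 0.680% for Trib1 hi and 5.66 ± 0.326% for Trib1 null (SD, n = 4 each), and the groups overlapped.

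Some signals other than the members' shared this movement. The spiked bacteriophage control cre read 25751, 25125, 17226 and 25621 on the Trib1 hi arrays and 19438, 24331, 22282 and 23073 on the Trib1 null arrays. The 3′ probe set of Actb, the beta-actin gene, read 41923, 39669, 27072 and 38248 on the Trib1 hi arrays and 30382, 39150.5, 36807 and 36358 on the Trib1 null arrays. In both cases Trib1 hi 3 was lowest, with Trib1 null 1 next, while the 90th percentile of all signals stayed between 1808 and 1985. The control dap instead separated the groups. It read 2007, 2279, 1898 and 2205 on the Trib1 hi arrays and 2810, 2977, 2734 and 3331 on the Trib1 null arrays. A control for nonspecific binding (GC25) was high on Trib1 hi 3, at 379, against 11.4 to 15.1 on the other Trib1 hi arrays and 149 to 335 on the Trib1 null arrays. The part of these differences in the members' values was not tested.

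**Figure D1:**
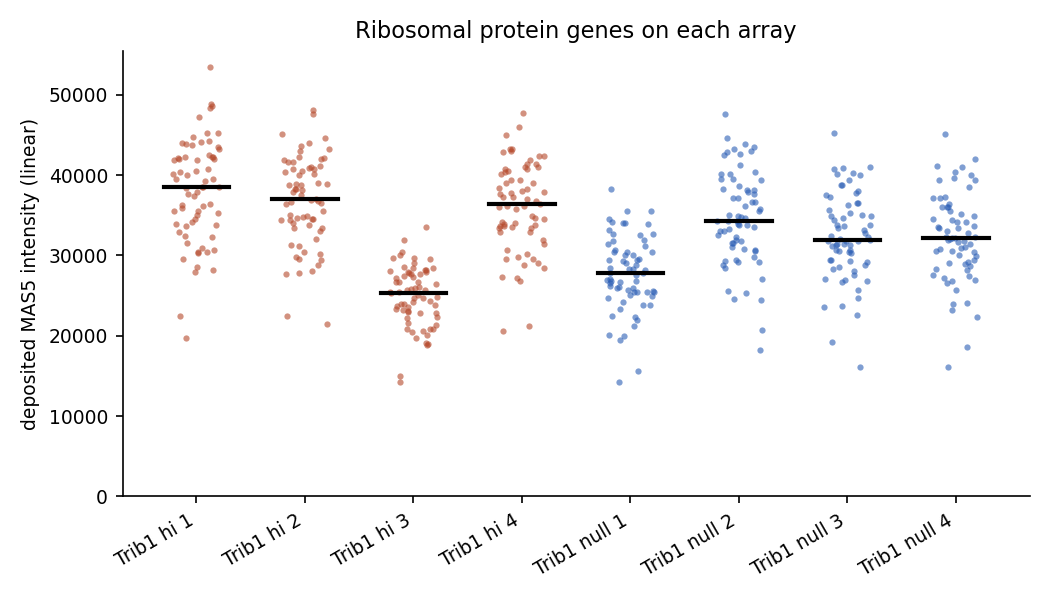
Deposited MAS5 signal (linear, y axis) of the 67 ribosomal protein genes with a mean over 10000 on each of the 8 arrays (x axis). Each point is 1 gene and the black line is the median, which lies at 25321 on Trib1 hi 3 and at 27823 on Trib1 null 1, and between 31978 and 38525 on the other arrays.

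On the deposited scale 0 of the 67 bright ribosomal protein genes passed the test between the groups. Of 71 members that passed the filter on dim signals, 1 was called higher in Trib1 hi (Rps19bp1) and 0 were called lower by limma at an adjusted p under 0.05, while 3 had an unadjusted p under 0.05. Over all 12250 genes tested, 11.1% were called higher and 19.7% lower. Fitted log2 differences, Trib1 hi minus Trib1 null, ran from -0.11 to 0.25 over the 67 bright members, with standard errors of 0.15 to 0.22 and limma adjusted p of 0.330 to 0.994. The median over the 71 members was 0.095, beside 0.041 over all genes tested. The 95% intervals reached 0.30 to 0.46 log2 units to each side of the fitted value, so smaller differences could not be told from 0 in the fit to the deposited scale. Signals of the groups overlapped for 67 of 67 bright members. In bulk RNA, fewer cells of a type and less RNA per cell cannot be told apart.

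Rps6, the small-subunit protein phosphorylated by S6 kinase, had the brightest mean signal of any member. It read 53516, 48133, 33504 and 47748 on the Trib1 hi arrays and 38247, 47592, 45259 and 45121 on the Trib1 null arrays, with a fitted log2 difference of 0.037 (95% interval -0.42 to 0.50, limma adjusted p = 0.940). The groups overlapped because Trib1 hi 3 lay below every Trib1 null array and the other Trib1 hi arrays lay above them.

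The absence of calls among the bright members did not hold without Trib1 hi 3 or after quantile normalization. With Trib1 hi 3 left out, limma called 40 of the 67 bright members higher and 0 lower, with a median log2 difference of 0.24. In that comparison 17.2% of all genes tested were called higher and 30.8% lower, and the median over all genes was -0.32. The signals of Trib1 hi 1, 2 and 4 lay above every Trib1 null array for 55 of the 67. The spiked control cre did so too, and the share of all genes that did so was not counted. After quantile normalization of all 8 arrays, 32 of the 67 were called higher and 9 lower, with log2 differences between -0.14 and 0.23, where 27.4% of all genes were called higher and 27.3% lower. How many members were called thus changed with the scaling and with Trib1 hi 3.

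Levels relative to the other members were much steadier, so each gene was also given as a percent of the median bright member on the same array, a measure chosen after the signals were seen. Within groups this measure had a median coefficient of variation of 1.47%, against 13.6% for the signal itself. For 50 of 67 genes the ratio of the Trib1 hi mean to the Trib1 null mean lay within 5% of 1, and for 65 within 10%. The groups did not overlap for 21 genes, of which 16 (23.9%) were lower and 5 (7.46%) higher in Trib1 hi. Over all genes tested, set against the same member median, 12.7% were lower and 10.0% higher without overlap. Of the 385 other genes with a mean signal over 10000, 190 were lower and 103 higher without overlap on this measure. Leaving out Trib1 hi 3 gave 16 lower and 5 higher as well, and the share over all genes was not counted for that comparison. This measure only shows unequal change among the members, since their median is 100% on each array by construction.

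**Figure D2:**
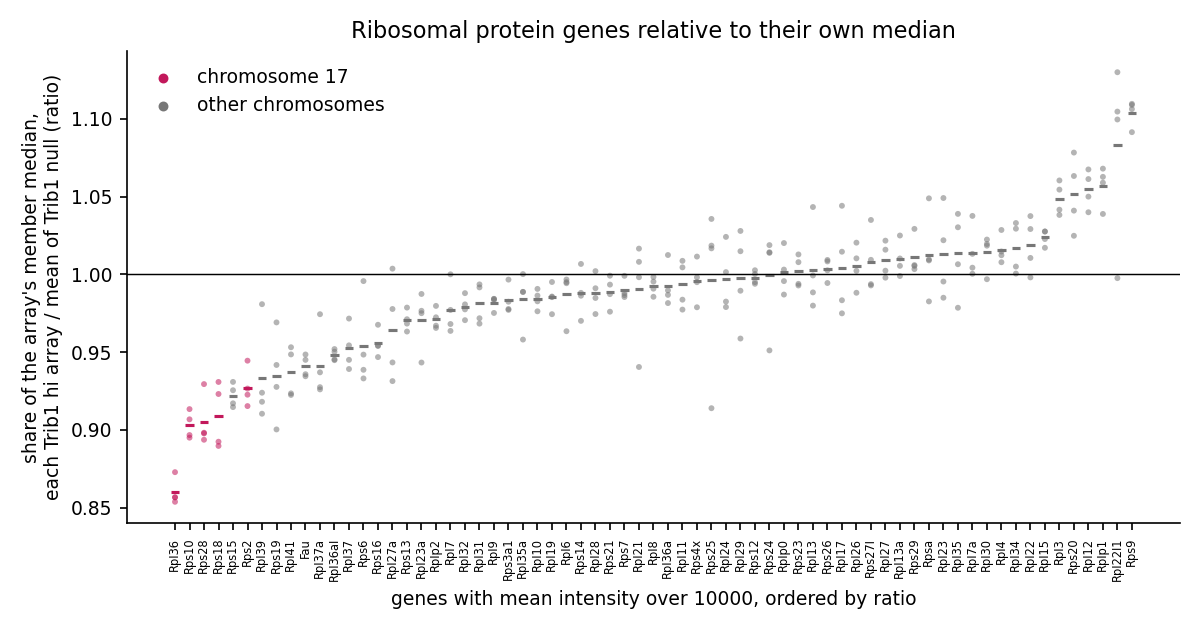
Percent of the member median on each Trib1 hi array divided by the mean percent on the 4 Trib1 null arrays (y axis, ratio), for the 67 ribosomal protein genes with a mean signal over 10000, ordered by mean ratio (x axis). Points are the 4 Trib1 hi arrays, bars their mean, and colour marks the 5 genes on chromosome 17, whose ratios of 0.860 to 0.927 lie at the low end, while Rps9 is highest at 1.10.

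The 5 bright members on chromosome 17 (Rps2, Rps10, Rps28, Rps18 and Rpl36) were all lower in Trib1 hi relative to the other members, without overlap. These genes, and Rps9, Rpl12, Rpl3, Rpl15, Rps20, Rps15, Rpl22, Rpl14 and Rps15a, were picked out after their values were seen, and so was the grouping by chromosome. Rpl36, a large-subunit protein, had 74.2, 75.8, 74.4 and 74.4% of the member median on the Trib1 hi arrays and 85.7, 86.7, 87.6 and 87.6% on the Trib1 null arrays. Its means of 74.7 ± 0.754% in Trib1 hi and 86.9 ± 0.920% in Trib1 null (SD, n = 4 each) gave a ratio of 0.860, the lowest of the 67. Every Trib1 hi array lay below every Trib1 null array, and the arrays of a group were close together. After quantile normalization Rpl36 was lower by a log2 difference of -0.14 (SE 0.012, limma adjusted p = 4.37e-07), against an SE of 0.18 on the deposited scale. Quantile normalization makes the top of every array alike, where the members sit, so it is not independent of the relative measure. Quantile-normalized values were fitted only with limma's variance trend, which limits all adjusted p given for them here.

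Rps10, a protein at the beak of the small subunit, had 113, 111, 112 and 114% on the Trib1 hi arrays and 122, 125, 125 and 124% on the Trib1 null arrays. Rps28, which lies near the mRNA exit of the small subunit, had 109, 105, 105 and 105% on the Trib1 hi arrays and 117, 117, 119 and 116% on the Trib1 null arrays. Rps18, in the head of the small subunit, had 117, 113, 112 and 116% on the Trib1 hi arrays and 122, 127, 127 and 128% on the Trib1 null arrays. In all these cases the highest Trib1 hi array stayed below the lowest Trib1 null array. Their ratios were 0.903, 0.905 and 0.909, and after quantile normalization limma called each of them lower (log2 differences -0.087, -0.094 and -0.082, adjusted p = 2.74e-05, 4.57e-05 and 0.000775). Rps2, at the mRNA entry of the small subunit, averaged 114 ± 1.53% in Trib1 hi and 123 ± 0.713% in Trib1 null (SD, n = 4 each), and its quantile-normalized difference of -0.033 missed the threshold (adjusted p = 0.0565).

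Rpl7l1, a paralog of Rpl7 linked to ribosome assembly and also on chromosome 17, read 2628, 2888, 2255 and 2695 on the Trib1 hi arrays and 2696, 3150.4, 3087 and 3064 on the Trib1 null arrays. The signals overlapped on Trib1 hi 2, with a fitted log2 difference of -0.20 (SE 0.096, limma adjusted p = 0.123). After quantile normalization it was called lower, at -0.25 (adjusted p = 0.000128), and relative to the members its ratio was 0.813. Of the chromosome 17 members, 5 of 5 further bright probe sets were lower without overlap. The 62 bright members on other chromosomes had ratios of 0.922 to 1.10, with 11 lower and 5 higher without overlap. Brighter members tended to have lower ratios, with a Spearman correlation of -0.27 over these 62 and -0.32 over all 67. The part of brightness in the ratios was not tested.

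Genes of chromosome 17 that are not members are given beside these values. On the deposited scale limma called 284 of 627 tested non-member genes on chromosome 17 lower (45.3%) and 18 higher (2.87%), and 325 were not called. On the other chromosomes it called 2125 of 11552 lower (18.4%) and 1344 higher (11.6%). Of the 25 chromosome 17 non-members with a mean signal over 10000, 14 were called lower and 1 higher. On this scale 0 of the 5 bright members there were called. As a percent of the member median, 201 of the 627 were lower (32.1%) and 20 higher without overlap. On the other chromosomes 1334 of the 11552 were lower (11.5%) and 1201 higher without overlap. Of the 25 bright non-members, 19 were lower and 4 higher on that measure. The copy number of the chromosome was not measured in these data, and its part in the members' values was not tested.

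**Figure D3:**
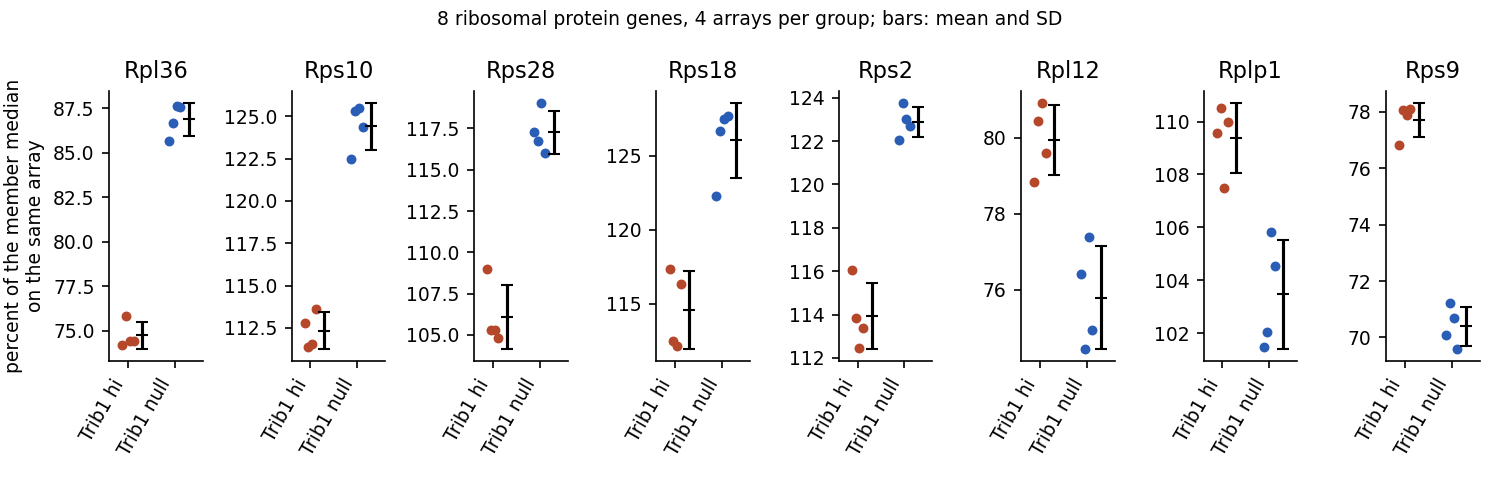
Percent of the member median on the same array (y axis, each panel with its own range) for 8 ribosomal protein genes, 4 arrays per group, with the mean and SD beside the points. Trib1 hi lies below Trib1 null without overlap for Rpl36, Rps10, Rps28, Rps18 and Rps2, all on chromosome 17, and above it without overlap for Rpl12, Rplp1 and Rps9.

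Rps9 stood highest. This small-subunit protein, found near the mRNA entry, had 76.8, 78.1, 77.9 and 78.1% of the member median on the Trib1 hi arrays and 70.1, 71.2, 70.7 and 69.6% on the Trib1 null arrays, a ratio of 1.10. Its signals were 29599, 28863, 19719 and 28482 on the Trib1 hi arrays and 19497, 24456, 22602 and 22358 on the Trib1 null arrays. On Trib1 hi 3 the signal lay near that of Trib1 null 1 while the percent stayed with the other Trib1 hi arrays. The fitted log2 difference of 0.25 (SE 0.17, limma adjusted p = 0.334) did not pass on the deposited scale, and the quantile-normalized difference of 0.23 did (adjusted p = 5.42e-09). The others higher without overlap were Rplp1 at a ratio of 1.06, Rpl12 at 1.05, Rpl3 at 1.05 and Rpl15 at 1.02. Rps20, at 1.05, overlapped, with 99.9, 104, 101 and 105% on the Trib1 hi arrays and 96.0, 100.0, 97.7 and 96.3% on the Trib1 null arrays.

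The stalk proteins recruit translation factors to the large subunit. Rplp1 had 109.6, 111, 108 and 110.0% of the member median on the Trib1 hi arrays and 101, 102, 106 and 105% on the Trib1 null arrays, without overlap, and was called higher after quantile normalization (log2 difference 0.12, limma adjusted p = 1.75e-05). Rplp2, its partner, averaged 113 ± 0.747% in Trib1 hi and 116 ± 1.53% in Trib1 null (SD, n = 4 each), lower without overlap, and its quantile-normalized log2 difference was 0.019 (limma adjusted p = 0.151). Rplp0, the base of the stalk, averaged 112 ± 1.58% in Trib1 hi and 112 ± 3.02% in Trib1 null (SD, n = 4 each) and overlapped, with a quantile-normalized log2 difference of 0.054 (limma adjusted p = 0.00774). Rpl12, which sits at the base of the same stalk, had 78.8, 80.4, 80.9 and 79.6% on the Trib1 hi arrays and 76.4, 74.5, 77.4 and 74.9% on the Trib1 null arrays. Of the 3 genes Rplp0, Rplp1 and Rplp2, 0 were called on the deposited scale, and 2 were called higher and 0 lower after quantile normalization. That scaling called 27.4% of all genes higher and 27.3% lower. No test of a difference between the stalk genes was made.

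By subunit, the relative ratio had a median of 0.993 over the 40 bright large-subunit genes and of 0.988 over the 24 small-subunit genes. In the large subunit 7 were lower and 4 higher without overlap, and in the small subunit 8 were lower and 1 higher. Over all genes tested 12.7% were lower and 10.0% higher without overlap. No test of a difference between the subunits was made. The lower ones on chromosome 17 were Rps10, Rps28, Rps18 and Rps2 of the small subunit and Rpl36 of the large subunit. Besides the chromosome 17 genes, the lower ones were Rps15 at a ratio of 0.922, Rpl39 at 0.933, Rps19 at 0.935, Rpl41 at 0.937, Fau at 0.941, Rpl37a at 0.941, Rpl36al at 0.948, Rpl37 at 0.953, Rps16 at 0.956, Rplp2 at 0.971 and Rpl32 at 0.979. Fau, whose protein is cut into a ubiquitin-like part and the small-subunit protein eS30, averaged 92.9 ± 0.678% in Trib1 hi and 98.7 ± 0.868% in Trib1 null (SD, n = 4 each). Rpsa, the small-subunit protein also known as a laminin receptor, had a ratio of 1.01 and overlapped.

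When each array was instead centred on the bright members, a setting added after the data were seen, limma called 6 of 71 members higher and 20 lower. Over all genes 8.11% were higher and 17.7% lower in that fit. Without limma's mean-variance trend 0 members were called in either direction, so these calls rest on the variance trend at high signal, where 65 of the 100 brightest genes are members.

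Among 21 genes known from human Diamond-Blackfan anaemia, 16 were bright members, and 0 of these were called on the deposited scale. After quantile normalization 8 of the 16 were called higher and 3 lower, and relative to the members 3 were lower without overlap (Rps10, Rps28 and Rps19) and 1 higher (Rpl15). Of all 67 bright members, 32 were called higher and 9 lower after quantile normalization, and 16 were lower and 5 higher without overlap. Over all genes tested, quantile normalization gave 27.4% higher and 27.3% lower, and 12.7% were lower and 10.0% higher without overlap. Rps19, the gene most often mutated in that disease, averaged 92.0 ± 2.82% in Trib1 hi and 98.4 ± 2.30% in Trib1 null (SD, n = 4 each). Rps14 had a ratio of 0.988 and Rpl11, which with Rpl5 binds the p53 regulator Mdm2, of 0.994, and both overlapped. Of the X-linked members, Rpl10 (0.984), Rpl36a (0.993) and Rps4x (0.996) overlapped, while Rpl39 had 126, 118, 117 and 119% on the Trib1 hi arrays and 128, 128, 128 and 131% on the Trib1 null arrays, without overlap.

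Of the 4 paralogs tested, 0 were called on the deposited scale, and 2 were called higher and 1 lower after quantile normalization (27.4% and 27.3% of all genes). No test of a difference between paralogs was made. Rpl22l1, whose mRNA Rpl22 is known to repress, had 51.1, 57.9, 56.3 and 56.6% of the member median on the Trib1 hi arrays and 51.2, 53.1, 50.5 and 50.2% on the Trib1 null arrays. Trib1 hi 1 lay with the Trib1 null arrays and the other Trib1 hi arrays above them, and after quantile normalization the gene was called higher (log2 difference 0.17, limma adjusted p = 0.000169; adjusted p = 0.330 on the deposited scale). Rpl22 itself averaged 74.0 ± 1.30% in Trib1 hi and 72.6 ± 1.00% in Trib1 null (SD, n = 4 each). Rps27l, a p53 target, had a ratio of 1.01 and overlapped. Rpl36al averaged 79.2 ± 0.298% in Trib1 hi and 83.5 ± 1.99% in Trib1 null, and its X-linked counterpart Rpl36a 101 ± 1.39% in Trib1 hi and 102 ± 0.701% in Trib1 null (SD, n = 4 each). Rpl3l, a muscle paralog of Rpl3, and Rpl39l, a testis paralog of Rpl39, were too dim for the fit. Rpl3l read 2.84, 2.70, 7.76 and 2.45 on the Trib1 hi arrays and 1.76, 2.11, 1.89 and 1.33 on the Trib1 null arrays, and Rpl39l 3.13, 2.63, 33.7 and 2.19 on the Trib1 hi arrays and 16.8, 2.37, 2.23 and 1.63 on the Trib1 null arrays. These near-identical families can share probes, so a value of Rpl36al, Rpl36a or a pseudogene relative may include its copy.

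Among the dim members, Rps19bp1 read 990.4, 986, 1129 and 1121 on the Trib1 hi arrays and 848, 831, 784 and 809.9 on the Trib1 null arrays. Every Trib1 hi array was above every Trib1 null array, and the fitted log2 difference was 0.37 (SE 0.13, limma adjusted p = 0.0320). The call was lost in 6 of the 8 fits that left out 1 array (limma adjusted p of 0.00514 to 0.114 over the 8), with scaling on the bioD and cre controls (adjusted p = 0.550) and with centring on genes over 1000 (adjusted p = 0.129). As a percent of the member median the groups overlapped. Rpl14 read 732, 828, 1031 and 959.8 on the Trib1 hi arrays and 789.9, 562, 668 and 751 on the Trib1 null arrays, overlapping at Trib1 hi 1 (adjusted p = 0.0971). Rps15a gave almost no signal, at 5.11, 4.43, 61.3 and 3.98 on the Trib1 hi arrays and 2.95, 3.11, 3.47 and 3.15 on the Trib1 null arrays, so its retained probe set gives no usable level.

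Further bright probe sets of a gene did not always repeat its relative value. For 33 further probe sets of 23 members with a mean over 10000, the ratio differed from that of the retained probe set by a median of 0.0113 and by at most 0.0854, for a probe set of Rpl7. Of the 33, 23 fell in the same class as the retained probe set (lower, higher or overlapping) and 10 did not. Rpl37, lower without overlap at 0.953, gave 1.03 with overlap on its second bright probe set, and Rpl41 gave 0.921 with overlap beside 0.937 without. Rpl7 gave 0.892, lower without overlap, beside 0.977 with overlap, and Rps12 gave 1.04, higher without overlap, beside 0.998. Such gaps are as large as many of the differences between groups. Dimmer probe sets of the same genes diverged. A second Rps6 probe set with a mean signal of 3548 had a relative ratio of 1.55 where the brightest gave 0.954, and for Rpl22 a probe set at 1215 gave 2.26 where the brightest gave 1.02. For Rpl13 a probe set at 853 gave 0.427 beside 1.00. The deposited table has no saturation flag, and the reason for these gaps was not tested.

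Pyrimidine runs near the annotated start were more frequent in member promoters than in all promoters. A minority of member promoters held the strict TOP pattern exactly at the annotated start. RefSeq promoters (GRCm38.p6, 250 bases before to 50 after each start) matched 59 of the 73 members, and 63 promoters of 53 bright member genes were searched. The strict pattern, a C at the annotated start followed by 4 pyrimidines, was at the start of 15.9% of these, against 2.51% of all 32851 promoters. A tract beginning at any other base was not counted, so this share depends on how exactly the start is annotated. The letters CTTTC lay within 50 bases of the start on the gene's strand in 49.2% of member promoters and 12.8% of all. The letters CTTCC did so in 49.2% of member promoters and 19.5% of all. The ETS-type motif CCGGAAG, sought on both strands of the whole window, was in 39.7% and 8.86%, and it can overlap CTTCC, which is its reverse strand in part. The E-box CACGTG, bound by MYC with MAX, was in 11.1% and 7.15%, and TATAAA within 50 bases before the start in 1.59% and 2.63%. Below are the 40 bases around the start, 20 before it and 20 from it on, of members at the low end of the relative ratio (Rps10, Rps28, Rps18, Rps2 and Rpl7l1), of members at the high end (Rps9, Rpl22l1, Rpl12 and Rpl15) and of Rps6. Capitals mark runs of 5 or more pyrimidines.
Rps10: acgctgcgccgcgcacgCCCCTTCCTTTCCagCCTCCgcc
Rps28: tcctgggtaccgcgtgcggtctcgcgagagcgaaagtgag
Rps18: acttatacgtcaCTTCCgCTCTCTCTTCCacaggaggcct
Rps2: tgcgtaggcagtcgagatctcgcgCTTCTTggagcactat
Rpl7l1: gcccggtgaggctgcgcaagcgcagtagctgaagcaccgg
Rps9: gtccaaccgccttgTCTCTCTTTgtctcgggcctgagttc
Rpl22l1: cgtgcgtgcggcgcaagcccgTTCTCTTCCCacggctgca
Rpl12: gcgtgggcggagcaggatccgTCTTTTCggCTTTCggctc
Rpl15: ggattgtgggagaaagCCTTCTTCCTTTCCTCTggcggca
Rps6: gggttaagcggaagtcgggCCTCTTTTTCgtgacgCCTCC
The windows lie at Rps10 chr17:27635225-27635264 (minus strand), Rps28 chr17:33824543-33824582 (minus strand), Rps18 chr17:33955646-33955685 (minus strand), Rps2 chr17:24720043-24720082 (plus strand), Rpl7l1 chr17:46782637-46782676 (minus strand), Rps9 chr7:3704021-3704060 (plus strand), Rpl22l1 chr3:28805488-28805527 (plus strand), Rpl12 chr2:32961692-32961731 (plus strand), Rpl15 chr14:18270967-18271006 (minus strand) and Rps6 chr4:86857348-86857387 (minus strand). Runs of pyrimidines stood near the start at both ends of the ratio order: the longest run was 13 bases in Rps10 and 17 in Rpl15. Rps28 and Rpl7l1, both at the low end, had no run of 5 in this window. Rpl36, Rplp1, Rps20 and Rpl3 are named without a sequence. The arrays measure mRNA level, and nothing about TOP translation follows from these letters.

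Lists of related genes gave other counts beside those of the members, although no test of the difference between lists was made. Ribosome assembly factors, the nucleolar proteins that process rRNA and build subunits, were called higher for 26 of 32 tested genes and lower for 1 (Efl1, an assembly GTPase, at a mean of 137 ± 148 in Trib1 hi and 330.4 ± 73.1 in Trib1 null), with a median log2 difference of 0.86. Nop56, a core protein of box C/D particles, averaged 7352 ± 988 in Trib1 hi and 2550.3 ± 256 in Trib1 null (SD, n = 4 each; log2 difference 1.52, limma adjusted p = 1.12e-13). Nolc1, a nucleolar chaperone of small nucleolar ribonucleoproteins, averaged 3076 ± 318 in Trib1 hi and 1139.5 ± 74.4 in Trib1 null (limma adjusted p = 3.88e-13). Ppan, a factor of large-subunit assembly, averaged 1394 ± 62.3 in Trib1 hi and 508 ± 71.4 in Trib1 null (limma adjusted p = 8.83e-10). Without Trib1 hi 3 the list gave 27 higher and 1 lower, and after quantile normalization 31 higher and 0 lower. Over all genes tested, 11.1% were called higher and 19.7% lower on the deposited scale. Those shares were 17.2% and 30.8% without Trib1 hi 3, and 27.4% and 27.3% after quantile normalization.

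Other TOP mRNAs, which share the 5′ tract but encode translation factors and a few other proteins, were called higher for 8 of 22 and lower for 0, with a median of 0.26. Without Trib1 hi 3 the count was 19 higher and 0 lower, and after quantile normalization 18 higher and 1 lower. Over all genes tested, 11.1% were called higher and 19.7% lower on the deposited scale. Those shares were 17.2% and 30.8% without Trib1 hi 3, and 27.4% and 27.3% after quantile normalization. Eef1a1, the main elongation factor, averaged 42474 ± 7665 in Trib1 hi and 39737 ± 4244 in Trib1 null (adjusted p = 0.856). Npm1, a nucleolar histone chaperone, averaged 24698 ± 4168 in Trib1 hi and 14756 ± 937 in Trib1 null (log2 difference 0.73, limma adjusted p = 0.000268). Gas5, a noncoding TOP RNA that hosts small nucleolar RNAs, averaged 1406 ± 113 in Trib1 hi and 104 ± 75.2 in Trib1 null (limma adjusted p = 4.34e-08). Imp3, a U3 particle protein, and Pabpc4, a poly(A)-binding protein, had log2 differences of 0.77 and 0.69 (adjusted p = 2.67e-07 and 5.78e-06).

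Chaperones and importins of ribosomal proteins were called higher for 8 of 11 and lower for 1 (Ipo9, limma adjusted p = 0.00981). Over all genes tested, 11.1% were called higher and 19.7% lower. Ltv1, an assembly factor of the small-subunit beak, averaged 3451 ± 458 in Trib1 hi and 1535 ± 33.8 in Trib1 null (log2 difference 1.16, limma adjusted p = 3.28e-11). Grwd1, a chaperone of Rpl3, averaged 609.9 ± 147 in Trib1 hi and 218 ± 61.1 in Trib1 null (adjusted p = 0.000359). Tnpo1, an import receptor, averaged 4428 ± 577 in Trib1 hi and 2267 ± 133 in Trib1 null (adjusted p = 1.90e-09).

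RNA polymerase I genes, which make rRNA, gave 3 higher and 1 lower of 13, beside 11.1% higher and 19.7% lower over all genes, and 7 higher and 1 lower after quantile normalization. The higher ones were Twistnb (log2 difference 0.62, limma adjusted p = 5.01e-06), Taf1b (log2 difference 0.45, adjusted p = 0.0174) and Ubtf (log2 difference 0.44, adjusted p = 0.000972). Znrd1, a subunit gene on chromosome 17, was lower, at 1599.8 ± 63.9 in Trib1 hi and 5105 ± 244 in Trib1 null (adjusted p = 3.09e-16). Without Trib1 hi 3 the list gave 3 higher and 3 lower, beside 17.2% higher and 30.8% lower over all genes. After quantile normalization the shares over all genes were 27.4% higher and 27.3% lower.

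Among regulators of TOP translation and of ribosomal protein transcription, 4 of 12 were called higher and 1 lower. Without Trib1 hi 3 the count was 6 higher and 2 lower, and after quantile normalization 8 higher and 1 lower. Larp1 averaged 3062 ± 234 in Trib1 hi and 1514 ± 52.4 in Trib1 null (log2 difference 1.01, limma adjusted p = 2.04e-10). Eif4ebp1, the translation repressor inactivated by mTOR, averaged 8061 ± 1363 in Trib1 hi and 3480.3 ± 239.9 in Trib1 null (adjusted p = 1.28e-10). Larp4 and Rheb, the GTPase that activates mTOR, were higher by 1.06 and 0.53 (adjusted p = 6.98e-11 and 0.000380). Mtor was lower, at 451 ± 153 in Trib1 hi and 742 ± 27.7 in Trib1 null (adjusted p = 0.00577). Myc averaged 6669 ± 1098 in Trib1 hi and 5481.6 ± 424 in Trib1 null (adjusted p = 0.0647), and Mycn 27220.4 ± 5333 in Trib1 hi and 23222 ± 1745 in Trib1 null (adjusted p = 0.447). Proliferation genes gave 4 higher and 1 lower (Mcm5) of 13, with Mcm2 highest at a log2 difference of 0.83 (adjusted p = 5.60e-08), and 11 higher and 1 lower without Trib1 hi 3. After quantile normalization they gave 9 higher and 2 lower. Over all genes tested, 11.1% were called higher and 19.7% lower on the deposited scale. Those shares were 17.2% and 30.8% without Trib1 hi 3, and 27.4% and 27.3% after quantile normalization.

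**Figure D4:**
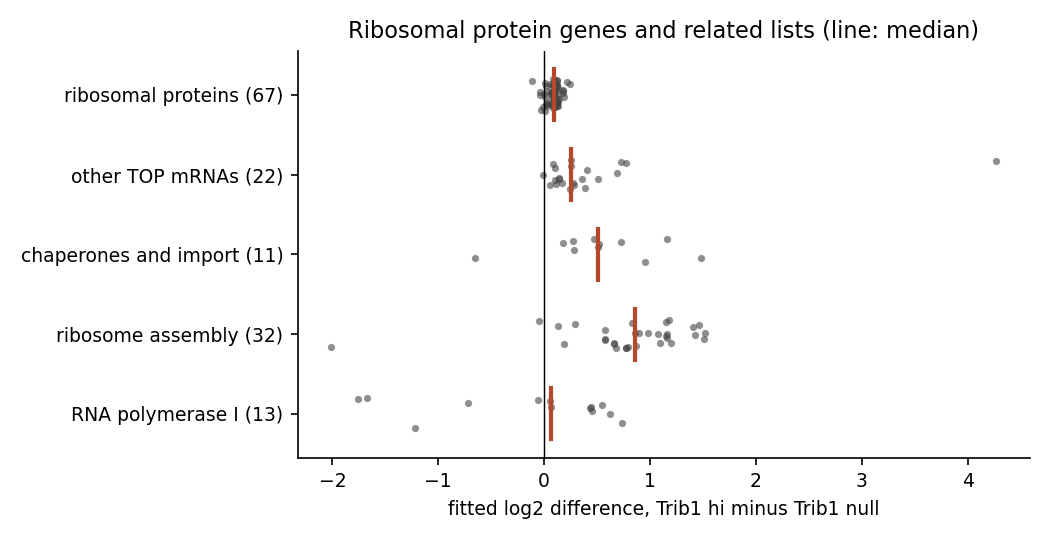
Fitted log2 difference on the deposited scale, Trib1 hi minus Trib1 null (x axis), for the 67 bright ribosomal protein genes and 4 related lists (y axis, genes tested in brackets). Points are genes and the line is the list's median, which lies at 0.095 for the ribosomal proteins and at 0.86 for ribosome assembly.

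The labelled cell type was checked against marker lists. Of 12 myeloid markers 10 had a mean signal over 500. The summed signal of the 12 was 86548 to 123566 on the Trib1 hi arrays and 100304 to 120696 on the Trib1 null arrays. These sums hide opposite changes. On the deposited scale 4 of the 12 were called higher and 4 lower in Trib1 hi, with log2 differences from -1.62 to 9.85. Of the measured markers, 0 of 4 erythroid and 0 of 5 lymphoid genes had a mean over 500. Of 6 fibroblast and endothelial markers 1 did, and the sums were 1593 to 1742 on the Trib1 hi arrays and 2057 to 2363 on the Trib1 null arrays. The part of other cells in the members' values was not tested.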

How the data were processed

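The deposited table holds 1 linear intensity per array for 45141 probe sets on 8 arrays. Per the submitters' processing notes the authors made it with MAS5, of unstated version. Labelled RNA came from 100 ng of total RNA per the labels. Of the probe sets, 28898 had exactly 1 symbol in the platform annotation and 551 had several; 73 members had 136 probe sets. Entrez identifiers placed all 73 on RefSeq GRCm38.p6 for names, chromosomes and promoters only. Members and lists were chosen with earlier results of these data known.

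Values were tested as log2(intensity + 2.71), the 25th percentile of all values, without further scaling; a fold change on this scale understates that of dim genes. The filter kept 12250 genes whose average log2 signal exceeded 3.01 (40th percentile of probe sets). limma 3.58.1 in R 4.3.3 (lmFit, eBayes with trend) gave a two-sided test of 4 arrays labelled Trib1 hi against 4 labelled Trib1 null. P-values were adjusted by Benjamini-Hochberg over all genes tested, with a threshold of 0.05. The script was tested on simulated data. Group and replicate came from the titles. The number of arrays limits the precision.

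Named genes were members past the threshold, the paralogs, stalk and X-linked genes, Rpsa, Fau, Rps6, Rps19, Rps14 and Rpl11, and up to 4 genes per other list by size of change; other members named, and Eef1a1, Ipo9, Rheb, Myc and Mycn, were chosen after their values were seen. Alternatives covered scaling, filter, probe sets, variance model and leaving out each array.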

Additional observations from a re-analysis of the deposited data

Results flagged for a closer look

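Of 128 groups of 4 arrays examined, 31 had 1 array whose gap to its nearest neighbour, divided by the range of the group, passed Dixon's 95% critical value, where chance gives about 1 in 20. Most were Trib1 hi groups in which Trib1 hi 3 lay apart. The members' median signal gave 0.844 and their share of the total 0.866. By gene, the deposited signal in Trib1 hi gave 0.852 for Rpl36, 0.849 for Rps10, 0.887 for Rps9, 0.864 for Rpl12, 0.859 for Rplp1, 0.882 for Fau, 0.962 for Rps19, 0.891 for Rps14, 0.919 for Rpl11, 0.855 for Rpl10, 0.865 for Rpl36a, 0.934 for Rps4x, 0.868 for Rpl22, 0.843 for Rpl36al and 0.840 for Rps27l. The dim members gave 0.980 for Rps15a, 0.927 for Rpl3l and 0.970 for Rpl39l, where Trib1 hi 3 was the highest array.

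In Trib1 null the signal gave 0.921 for Rpsa, 0.835 for Rps19 and 0.951 for Rpl39l. As a percent of the member median, Trib1 hi gave 0.849 for Rpl36, 0.874 for Rps28, 0.990 for Rps15a, 0.973 for Rpl3l and 0.983 for Rpl39l. Trib1 null gave 0.837 for Rps19bp1, 0.962 for Rpl39 and 0.966 for Rpl39l. What sets these arrays apart was not tested.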

How the results depend on the processing

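Counts of members called depended on scaling and on Trib1 hi 3. Against 1 member called higher and 0 lower on the deposited scale, quantile normalization gave 35 and 10 of 71, scaling on the bioD and cre controls 25 and 6, centring on genes over 1000 gave 2 and 2, the mean of a gene's probe sets 3 and 3, and array weights 67 and 1. Probe sets without a suffix (29 members) gave 4 higher. Leaving out 1 array gave 0 to 41 higher, with 41 without Trib1 hi 3, and 0 lower. Deviations of same-numbered arrays had correlations of -0.507, 0.487, -0.294 and 0.367. The largest correlation, 0.653, was between Trib1 hi 3 and Trib1 null 1, so these values cannot show whether the numbers pair arrays. The replicate block gave 0 members higher. Against 1363 genes called higher, quantile normalization gave 3354, the mean of probe sets 711, array weights 2820, and leaving out 1 array 1153 to 2103. Against 2409 called lower, a floor of 500 gave 1594, the mean of probe sets 1285, no trend 1274, array weights 4900, and leaving out 1 array 1964 to 3768. Scaling on the bioD and cre controls gave 1111 of all 12250 genes higher and 1901 lower. Rps19bp1, the 1 member called, lost its call in 6 of 8 fits without 1 array. Centred on the members, against 6 higher and 20 lower, no trend gave 0 and 0, probe sets without a suffix 2 and 8, and leaving out 1 array 5 to 7 and 15 to 20. The median member difference of 0.095 stayed within 0.033 to 0.24.

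Of 957 alternatives for 58 fitted gene values, 836 kept direction and call or changed sign with neither called, 73 gained a call, 38 lost it and 10 reversed. On the deposited scale quantile normalization turned Fau to -0.042, Rps19 to -0.050 and Rpl39 to -0.051. Array weights turned Rps18 to 0.093, Rps28 to 0.098, Rps2 to 0.14 and Rps15 to 0.11. Relative to the members, probe sets without a suffix turned Rps6 to 0.62, Rpl39 to 0.24 and Rps10 to 0.11. The cause was not tested. The 4 arrays per group limit what could be called.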
